A study of Homo sapiens with 6 samples.

Results

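Star-strand probes are the array features for the passenger arm of a miRNA hairpin, the strand that is usually the less abundant of the mature products. They were chosen by name alone: 83 of the 581 probes with values carry an asterisk at the end of their name. The other probes were 386 mature miRNAs without an asterisk (called guides here), 104 precursors and 8 controls. The asterisk comes from the array's older naming, and it fixes a label, not a measured abundance. A later name with an arm suffix (5p or 3p) is used below where a sequence is given.

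The cells were Hep3B, a human hepatocellular carcinoma line that lacks functional p53. They were transfected by lipofection with the plasmid pcDNA3.1, either empty (Mock, 3 arrays) or carrying HDAC6 (HDAC6, 3 arrays). HDAC6 is a mainly cytoplasmic deacetylase whose substrates include tubulin, and the series title asks which miRNAs it regulates in this cancer. Per the labels, RNA of 3 independent extractions per condition was pooled in equal amounts, so the 3 arrays of a group may be repeat hybridizations of 1 pool. The p-values below thus rest on spread between arrays alone, possibly of technical origin. HDAC6 itself has no probe on a miRNA array, and its level was not checked.

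A miRNA hairpin is cut by Drosha in the nucleus and by Dicer in the cytoplasm into a duplex of both arms. An Argonaute protein keeps 1 arm of the duplex, the guide, and the other arm, the star, is mostly released and degraded. Which arm is kept depends in large part on which 5′ end is paired less tightly, and for some hairpins both arms are loaded. Both arms come from the same hairpin transcript, so a difference between their changes can be a difference between strands of that precursor. It can also arise where several genes feed the same guide or where probes bind other RNAs. Signals near background and the dependence of signal on base composition, described below, can give such a difference too. The bases 2 to 8 of a loaded arm, the seed, pair with target mRNAs.

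The star arms at the centre of the results are those of miR-195, miR-194, miR-92b and miR-181c, shown with their guides because these 4 pairs changed most differently between the arms. The sequences are mature miRNAs from RefSeq on GRCh38.p14, written 5′ to 3′ with the seed in capitals, and the probe sequences of the array were not used here. Of the 83 star names, 73 were matched to a RefSeq mature arm.
miR-195* (miR-195-3p): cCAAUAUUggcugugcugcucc
miR-195: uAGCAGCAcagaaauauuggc
miR-194* (miR-194-3p): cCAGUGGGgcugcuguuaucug
miR-194: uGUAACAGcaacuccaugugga
miR-92b* (miR-92b-5p): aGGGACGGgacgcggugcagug
miR-92b: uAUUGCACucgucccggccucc
miR-181c* (miR-181c-3p): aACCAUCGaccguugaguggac
miR-181c: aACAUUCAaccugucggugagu
The star arm of miR-195 lies on the minus strand at chr17:7017628-7017649, that of miR-194 on the minus strand at chr11:64891368-64891389, that of miR-92b on the plus strand at chr1:155195196-155195217, and that of miR-181c on the plus strand at chr19:13874763-13874784.

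A second set is shown for the strongest changes among stars and for a shared seed. The miR-363* and miR-195* probes had the largest rises and miR-335* and miR-2116* the largest falls. The miR-16-2* arm has the same first 8 bases as miR-195*, and the pair miR-24-1* and miR-24-2* shares its first 15 bases.
miR-363* (miR-363-5p): cGGGUGGAucacgaugcaauuu
miR-335* (miR-335-3p): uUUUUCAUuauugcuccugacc
miR-2116* (miR-2116-3p): cCUCCCAUgccaagaacuccc
miR-16-2* (miR-16-2-3p): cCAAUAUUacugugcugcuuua
miR-24-1* (miR-24-1-5p): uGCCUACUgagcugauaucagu
miR-24-2* (miR-24-2-5p): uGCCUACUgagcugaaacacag

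All values are the authors' quantile-normalized signals on a log2 scale, and a change is the mean of the HDAC6 arrays minus the mean of the Mock arrays. As the array medians were nearly equal (7.51 to 7.58), each change is relative to the other probes, and a change in total miRNA would not show. Arrays of the same group correlated across probes at r = 0.922 to 0.959 and arrays of different groups at 0.779 to 0.848. In 102 probes of the Mock group and 40 of the HDAC6 group, the antilog of 1 array's value equalled the mean of the other 2 arrays within a relative tolerance of 3e-06. Such values do not act as separate measurements and make the spread of their group too small. They touched 29 of the 83 star probes (34.9%), 54 of the 386 guides (14%) and 36 of the 104 precursors (34.6%). How they arose is not given in the sources used here. They are named below beside each leading star that holds one, while those of the guides are not listed.

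The star probes sat mostly in the lower part of the signal range. Their mean log2 signal over the 6 arrays ran from 5.34 to 11.45 with a median of 6.82. Of the 83, 40 were below the array median on all 6 arrays and 17 were above it on all 6. Signals of different probes depend on the probe as well as on the RNA, so these values rank no strand against another. In log2 units, the median SD over the arrays of a group was 0.279 (Mock) and 0.255 (HDAC6). No detection call was used, and a probe close to background may hold little signal of its target.

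Across all 581 probes, limma with Benjamini-Hochberg adjustment over all of them called 266 (45.8%) at an adjusted p under 0.05, 124 of them higher with HDAC6 (21.3%) and 142 lower (24.4%). Among the guides 50.3% passed, 20.7% as higher and 29.5% as lower. Of the 83 star probes 34 passed (41.0%): 12 were higher (14.5%) and 22 lower (26.5%). The share passing was thus close to that of all probes. The median log2 change was -0.31 for the star probes, against -0.09 for all probes and -0.21 for guides. The middle of the star distribution, from the lower to the upper quartile, ran from -0.77 to 0.34. A change of at least 2-fold among those that passed was seen in 8 higher and 10 lower stars. The 3 HDAC6 arrays did not overlap the 3 Mock arrays for 44 stars (53.0%, against 56.8% of all probes and 61.9% of guides), above them for 18 and below them for 26.

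The direction of the calls differed with signal level. Among the 57 stars whose mean was below the median of all probes, 3 passed as higher and 16 as lower. Among the 26 brighter stars, 9 passed as higher and 6 as lower. Of all 290 dimmer probes 31 were higher and 64 lower, and of all 291 brighter probes 93 were higher and 78 lower. The 64 stars with a miRNA number under 500, mostly the older and more conserved entries, had 9 higher and 19 lower probes with a median of -0.39. The 19 stars numbered from 500 had 3 higher and 3 lower probes with a median of 0.11.

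**Figure D1:**
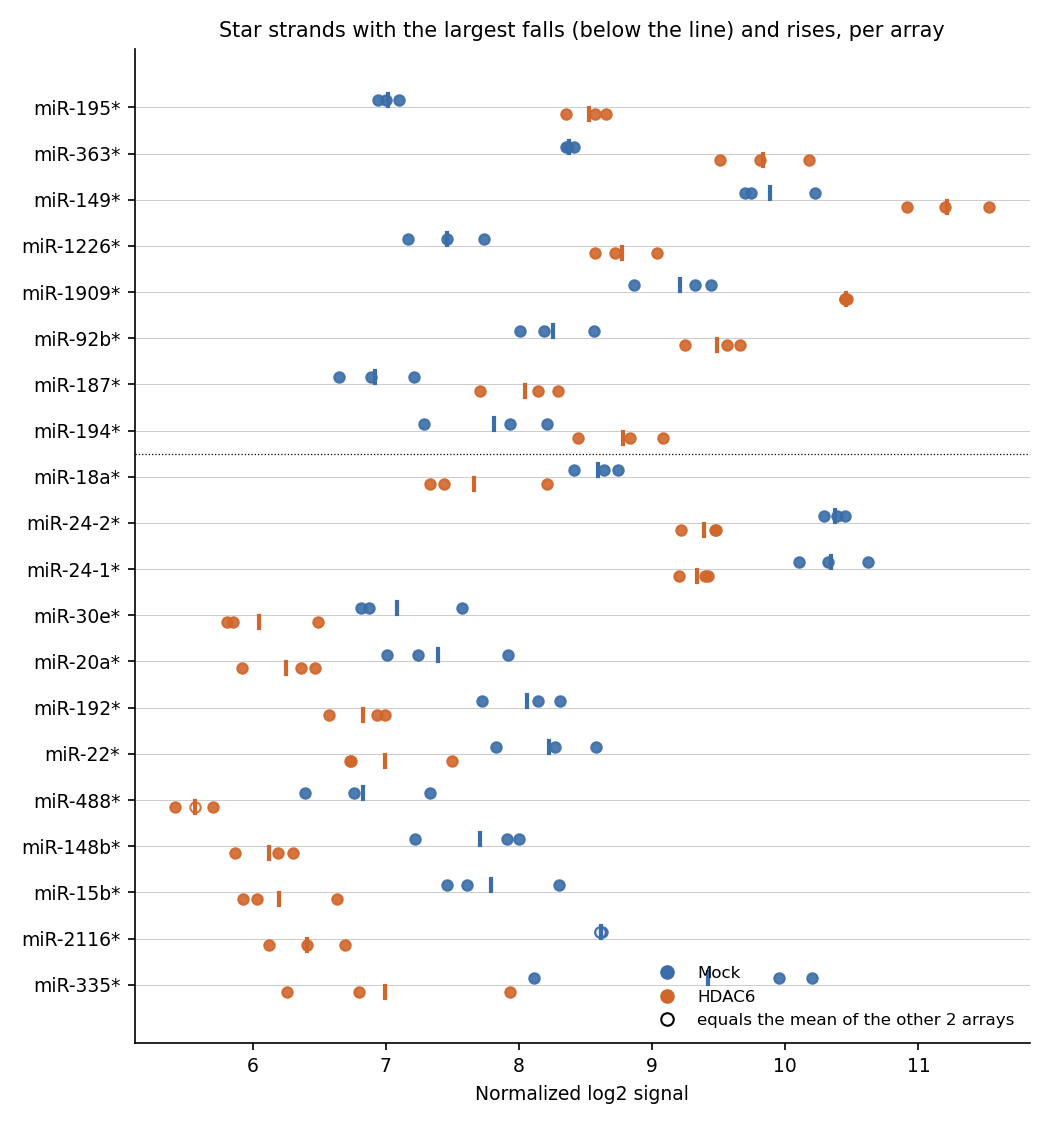
Log2 signal of the named star probes on each array, with the 3 Mock and the 3 HDAC6 arrays as separate points, rises above the dotted line and falls below it. An open circle marks a value equal to the mean of the other 2 arrays of its group. The HDAC6 points of miR-195* and miR-363* lie above all their Mock points and those of miR-2116* and miR-148b* below them.

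The largest rise among stars was that of miR-195*, the passenger of a miR-15/16 family member whose guide represses cyclins and BCL2. Its log2 signal was 6.94, 7.10 and 7.0 on the Mock arrays and 8.57, 8.65 and 8.35 on the HDAC6 arrays. The groups were well apart, and the probe was 2.85-fold higher with HDAC6 (log2 change 1.51, SE 0.18, adjusted p = 0.00266 by limma). The star of miR-363, a member of the X-linked paralog of the miR-17/miR-92 cluster, read 8.41, 8.37 and 8.35 in Mock and 9.81, 10.18 and 9.51 in HDAC6. It rose by 1.46 (SE 0.22, adjusted p = 0.00307, limma), with every HDAC6 array above every Mock array. These were the only rises that kept their call under every alternative in which they could be fitted.

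The miR-149* probe read 9.70, 9.74 and 10.22 in Mock and 10.91, 11.20 and 11.53 in HDAC6, a rise of 1.33 (SE 0.24, adjusted p = 0.00487, limma). The miR-1909* probe read 8.86, 9.32 and 9.44 in Mock and 10.45, 10.46 and 10.45 in HDAC6, a rise of 1.25 (SE 0.21, adjusted p = 0.00384, limma). The miR-92b* probe read 8.19, 8.01 and 8.56 in Mock and 9.25, 9.56 and 9.66 in HDAC6, a rise of 1.24 (SE 0.22, adjusted p = 0.0047, limma). None of these 3 stars had overlapping groups, and miR-92b belongs to the family that shares its guide seed with miR-25. When each array's dependence on base composition was removed, none of the 3 passed (adjusted p 0.899 for miR-149*, 0.474 for miR-1909* and 0.676 for miR-92b*, limma).

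The hairpins of miR-1226 and miR-877 are mirtrons, short introns whose splicing replaces the Drosha cut, and miR-1228 is given beside them. The miR-1226* probe rose from 7.17, 7.46 and 7.74 in Mock to 8.72, 9.04 and 8.57 in HDAC6 (log2 change 1.32, SE 0.23, adjusted p = 0.00409, limma). The miR-1228* probe rose from 10.88, 11.24 and 11.06 to 11.73, 11.93 and 11.87 (0.78, SE 0.19, adjusted p = 0.0133, limma). The groups of both were apart, and neither passed with the adjustment for base composition, where the change of miR-1228* turned negative at -0.50. The miR-877* probe did not pass at -0.40 (adjusted p 0.492, limma).

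Among the smaller rises, miR-187* read 6.65, 6.89 and 7.21 in Mock and 7.71, 8.29 and 8.14 in HDAC6 (1.13, SE 0.24, adjusted p = 0.00836, limma). The miR-194* probe, from a hairpin typical of liver and gut epithelium, read 7.29, 7.93 and 8.21 in Mock and 9.08, 8.44 and 8.83 in HDAC6 (0.98, SE 0.29, adjusted p = 0.0275, limma). The groups of both were apart. With the base-composition adjustment neither passed, miR-187* at 0.27 (adjusted p 0.429) and miR-194* at 0.61 (adjusted p 0.129, limma). The miR-194* call was also lost with centring on control probes (adjusted p 0.0541) and without Mock array 1, HDAC6 array 1 or HDAC6 array 3 (0.0763 to 0.0934, limma). The imprinted miR-431, from the 14q32 miRNA cluster, had a star at 6.28, 6.26 and 6.29 in Mock and 7.08, 7.04 and 7.43 in HDAC6, a rise of 0.91 (SE 0.19, adjusted p = 0.00782, limma). Its Mock value on array 1 equals the mean of the other 2, and with the base-composition adjustment its change was 0.54 (adjusted p 0.0734, limma). The miR-150* probe, with a Mock value of the same kind, passed narrowly at 0.58 (SE 0.20, adjusted p = 0.0407, limma). It lost the call under 10 of 15 alternatives, among them mean-equal values as missing (adjusted p 0.101) and the omission of any array but HDAC6 array 3 (0.0706 to 0.149). The let-7d* probe read 8.57, 7.80 and 7.71 in Mock and 9.86, 9.30 and 8.47 in HDAC6, so its groups overlapped. It passed at 1.18 (SE 0.39, adjusted p = 0.0377, limma) and lost the call without any of Mock arrays 2 and 3 and HDAC6 arrays 1 and 2 (adjusted p 0.0857 to 0.113).

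The largest fall was that of miR-335*, from a hairpin in an intron of the imprinted gene MEST. Its log2 signal was 10.20, 9.95 and 8.11 on the Mock arrays and 7.93, 6.26 and 6.80 on the HDAC6 arrays. The groups did not overlap, but the third Mock array lay closer to HDAC6 than to the other Mock arrays. The log2 change was -2.42 (SE 0.62, adjusted p = 0.0155, limma), and the call was lost without Mock array 1 (adjusted p 0.055), Mock array 2 (0.05) or HDAC6 array 3 (0.0524). With the base-composition adjustment it was -1.58 (adjusted p 0.0848, limma). The miR-2116* probe read 8.61, 8.62 and 8.61 in Mock and 6.12, 6.41 and 6.69 in HDAC6, and was 4.62-fold lower (log2 change -2.21, SE 0.21, adjusted p = 0.0012, limma). Its Mock value on array 3 equals the mean of the other 2, and the call held with such values treated as missing.

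The miR-148b hairpin belongs to a family whose guides repress DNA methyltransferases. Its star read 7.91, 7.22 and 8.0 in Mock and 6.30, 6.19 and 5.87 in HDAC6, a change of -1.59 (SE 0.26, adjusted p = 0.00359, limma). The star of miR-192, which in liver and gut is made with miR-194, read 8.14, 7.72 and 8.31 in Mock and 6.93, 6.99 and 6.57 in HDAC6, a change of -1.22 (SE 0.23, adjusted p = 0.00507, limma). The star of miR-488, a miRNA of neural tissue, read 7.33, 6.39 and 6.76 in Mock and 5.70, 5.57 and 5.42 in HDAC6, a change of -1.26 (SE 0.27, adjusted p = 0.00782, limma). The groups of all 3 were apart. With miR-2116*, these were the falls that kept their call under every alternative in which they could be fitted, although the HDAC6 value of miR-488* on array 2 equals the mean of the other 2 arrays.

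The star of miR-15b, the partner of miR-16-2 in their hairpin cluster, read 7.46, 7.61 and 8.30 in Mock and 6.03, 6.63 and 5.93 in HDAC6. Its change was -1.60 (SE 0.30, adjusted p = 0.00487, limma), with no overlap between groups, and the adjusted p was 0.0723 with the base-composition adjustment. The stars of miR-24-1 and miR-24-2, whose guides have the same mature sequence, moved alike. The miR-24-1* probe read 10.32, 10.10 and 10.62 in Mock and 9.20, 9.42 and 9.40 in HDAC6 (-1.01, SE 0.21, adjusted p = 0.00737, limma). The miR-24-2* probe read 10.29, 10.39 and 10.45 in Mock and 9.22, 9.48 and 9.47 in HDAC6 (-0.99, SE 0.18, adjusted p = 0.00487, limma). As these arms share their first 15 bases, each may bind the other's probe, and the values cannot be taken as separate evidence. With centring on control probes neither passed (adjusted p 0.0531 and 0.0609, limma).

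The remaining falls with changes of at least 2-fold were those of miR-22* (-1.24), miR-20a* (-1.14) and miR-30e* (-1.03). The miR-22* probe read 8.27, 7.83 and 8.58 in Mock and 6.73, 7.5 and 6.74 in HDAC6 (SE 0.29, adjusted p = 0.0122, limma). The miR-20a* probe, of the miR-17/miR-92 cluster, read 7.01, 7.24 and 7.92 in Mock and 6.36, 6.47 and 5.92 in HDAC6 (SE 0.29, adjusted p = 0.0153, limma). The star of the p53-induced miR-34b read 6.33, 6.81 and 6.93 in Mock and 6.20, 5.91 and 5.60 in HDAC6, a change of -0.79 (SE 0.25, adjusted p = 0.0323, limma). The groups were apart for these 3 probes, narrowly so for miR-34b*, which lost its call under 10 of 17 alternatives (adjusted p 0.0628 to 0.321, limma). With the base-composition adjustment the changes were -0.63 for miR-22* (adjusted p 0.107), -0.30 for miR-20a* (0.407), -0.67 for miR-30e* (0.0938) and -0.32 for miR-34b* (0.321, limma). The miR-20a* call was also lost without HDAC6 array 3 (adjusted p 0.0534), and that of miR-30e* without Mock array 3, HDAC6 array 1 or HDAC6 array 3 (0.0503 to 0.0766, limma).

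Of the stars that did not pass, 49 in all, the changes ran from -1.40 for miR-23b* to 1.36 for miR-181c*. Both extremes rest on 1 array. The miR-23b* probe read 11.52 on the first Mock array and 6.5 and 6.19 on the others, with 6.74, 6.74 and 6.54 in HDAC6. The miR-181c* probe read 6.31, 6.33 and 6.28 in Mock, where the first value equals the mean of the other 2, and 7.02, 9.11 and 6.88 in HDAC6. All its HDAC6 arrays were above all its Mock arrays, and without the second HDAC6 array the change was 0.64 (adjusted p 0.0386, limma). The star of miR-21, a miRNA raised in many tumours, read 6.70, 6.40 and 6.79 in Mock and 6.58, 6.48 and 6.51 in HDAC6, with overlapping groups and a change of -0.10 (adjusted p 0.686, limma).

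Whether a star left its guide was tested within each array, as the log2 signal of the star minus that of the guide with the same name. There were 73 such pairs, 58 by the same name and 15 after a locus number was dropped, and they used 68 distinct guides. The 10 stars without a guide row were those of miR-15b, miR-202, miR-335, miR-363, miR-488, miR-505, miR-518c, miR-1911, miR-2115 and miR-2116. The absolute value of such a difference depends on the probes, and only its change between groups is described. Since both values come from the same array, a shift common to all probes of an array cancels.

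Limma, adjusted over all 73 pairs, called 16: the star gained on its guide in 15 (20.5%) and lost on it in 1 (1.37%). The median change of the difference was 0.54, and 54 were positive against 19 negative. Some of the 15 had a dim, nearly unchanged star, so the difference moved about as far as the guide. For miR-93 and miR-200b it changed by 1.25 and 1.28 beside guide changes of -1.20 and -1.30. Their star Mock means were 5.89 and 6.19. In miR-195, miR-194, miR-92b, miR-149 and miR-187 the star itself passed as higher. Whether dim stars had room to show a fall was not tested. The groups did not overlap for 30 pairs (41.1%), with HDAC6 above Mock in 25 and below in 5. Of the 68 guides in these pairs, 41 passed as lower (60.3%, beside 29.5% of all 386 guides) and 7 as higher, with a median of -1.01, and the difference between these shares was not tested. Of the 73 paired stars, 11 passed as higher and 17 as lower, with a median of -0.24. Across the 73 pairs the change of the star and that of its guide had the same sign in 49, with Pearson's r = 0.387 and Spearman's rho = 0.38. That correlation describes pairs measured on the same 6 arrays, some of which share a guide.

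**Figure D2:**
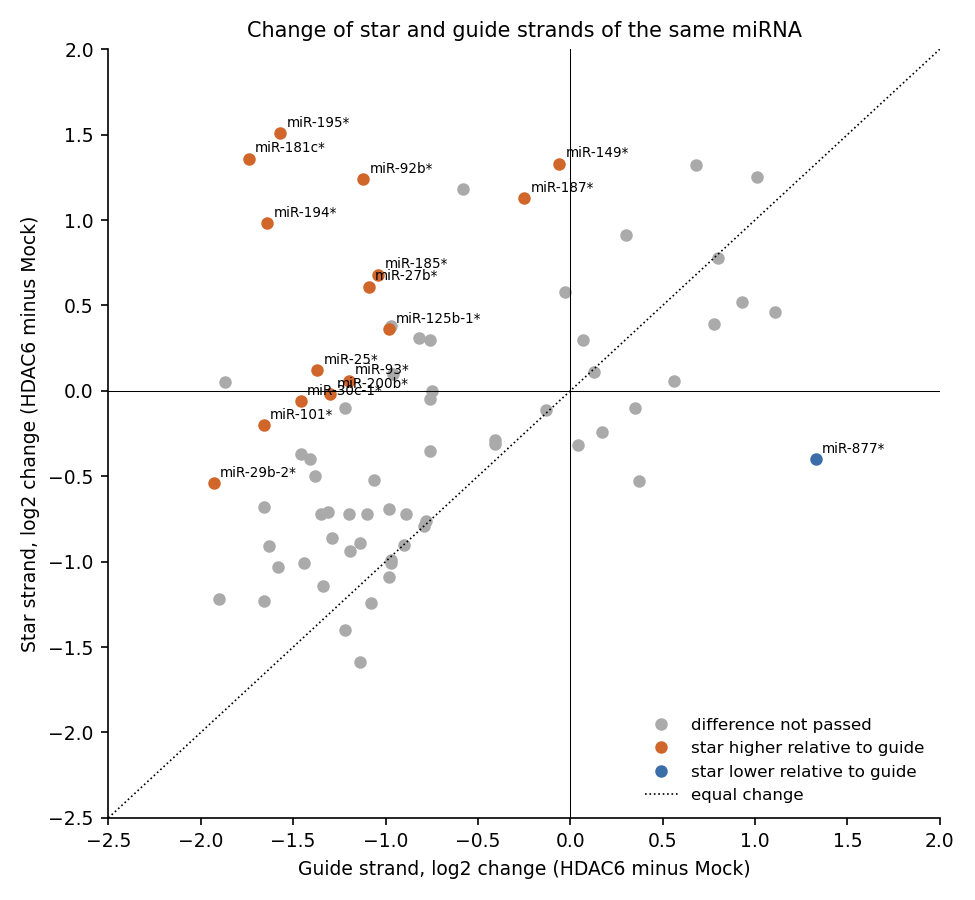
Log2 change of each of 73 star probes (vertical axis) against the log2 change of its guide (horizontal axis), with a diagonal where both changes are equal. Most points lie above the diagonal, 54 against 19 below, and miR-195*, miR-194*, miR-92b* and miR-181c* stand farthest above it.

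In 3 miRNAs the star passed as higher while the guide passed as lower: miR-195, miR-194 and miR-92b, and no miRNA showed the reverse. With the base-composition adjustment the stars of miR-194 (0.61, adjusted p 0.129) and miR-92b (0.14, adjusted p 0.676, limma) did not pass, so of these stars miR-195* alone kept its call. Whether the guide calls held under the alternatives was not examined. The miR-195 guide read 7.28, 7.86 and 6.63 in Mock and 5.59, 6.16 and 5.31 in HDAC6, a change of -1.57 (SE 0.36, adjusted p = 0.0108, limma), while its star rose by 1.51. The star minus the guide was -0.34, -0.77 and 0.38 in Mock and 2.97, 2.49 and 3.03 in HDAC6. The change of 3.08 (SE 0.38, adjusted p = 0.00136, limma over pairs) was far larger than the spread within either group.

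The miR-194 guide, made from 2 hairpins, read 11.41, 12.34 and 12.31 in Mock and 10.36, 9.70 and 11.09 in HDAC6, a change of -1.64 (SE 0.40, adjusted p = 0.0137, limma). Its star minus guide went from -4.12, -4.42 and -4.10 to -1.27, -1.26 and -2.27, a change of 2.62 (SE 0.37, adjusted p = 0.00191, limma over pairs). The groups were well apart in that difference, although the rise of the star alone was close to the threshold.

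The miR-92b guide read 11.31, 10.88 and 11.42 in Mock and 9.31, 10.58 and 10.35 in HDAC6, a change of -1.12 (SE 0.35, adjusted p = 0.0316, limma). Its star minus guide went from -3.12, -2.87 and -2.87 to -0.06, -1.02 and -0.69, a change of 2.36 (SE 0.35, adjusted p = 0.00191, limma over pairs). Again no HDAC6 array reached the Mock range.

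The largest change of a difference was that of miR-181c, at 3.10 (SE 0.59, adjusted p = 0.00841, limma over pairs). The guide read 7.85, 7.43 and 8.19 in Mock and 6.29, 6.05 and 5.89 in HDAC6 and fell by 1.74, and the star did not pass. The star minus the guide was -1.54, -1.10 and -1.90 in Mock and 0.73, 3.06 and 0.99 in HDAC6, with the second HDAC6 array far above the others. The 4 pairs of miR-195, miR-194, miR-92b and miR-181c passed under every alternative in which they were fitted. With the adjustment for base composition their changes were 2.45, 1.89, 1.87 and 2.62 (adjusted p 0.00855, 0.0128, 0.0128 and 0.0184, limma). The guides of miR-195 and miR-181c were dim in HDAC6, with means of 5.69 and 6.08, and miR-181c* had a Mock mean of 6.31. The lower quartile of mean signal over all probes was 6.6. What part of these changes comes from signal near background was not tested.

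**Figure D3:**
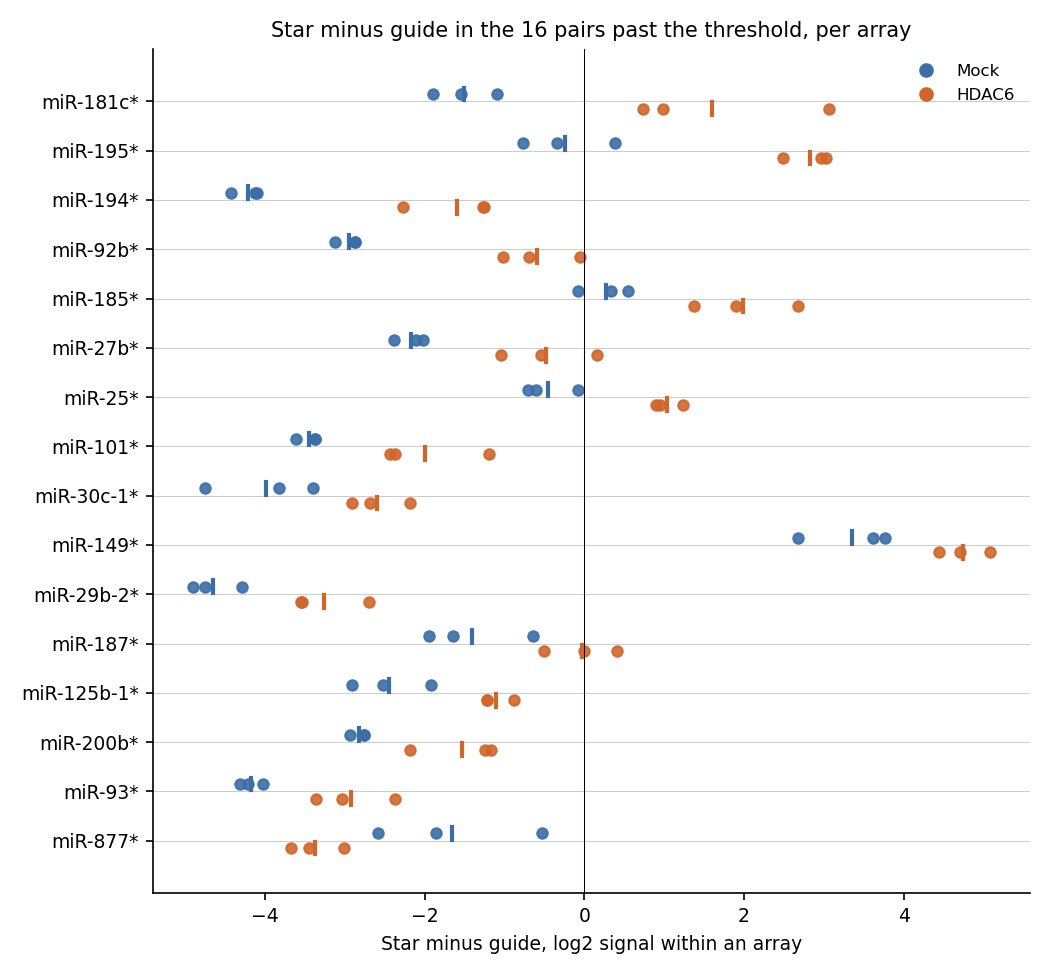
Star minus guide, in log2 units, on each Mock and HDAC6 array for the 16 pairs that passed the pair test. The HDAC6 points lie above the Mock points in 15 pairs and below them in miR-877*.

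In 10 pairs the star did not pass, the guide passed as lower, and the difference passed as higher; miR-181c was the first of these. The miR-185 star read 9.82, 9.78 and 9.81 in Mock and 11.00, 10.06 and 10.40 in HDAC6, its guide fell by 1.04, and the difference changed by 1.72 (SE 0.41, adjusted p = 0.0213, limma over pairs). The miR-27b star read 6.96, 7.32 and 7.31 in Mock and 8.03, 8.11 and 7.28 in HDAC6, its guide fell by 1.09, and the difference changed by 1.70 (SE 0.38, adjusted p = 0.0182, limma over pairs). Besides the leading 4 pairs, miR-27b* was the only one to pass with the adjustment for base composition (1.81, adjusted p 0.015, limma). Both the miR-27b and the miR-185 call were lost without Mock array 3 or HDAC6 array 1 (adjusted p 0.057 to 0.0693, limma), and with the base-composition adjustment the miR-185 difference was 0.99 (0.156).

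The miR-25 star read 8.26, 7.85 and 8.36 in Mock and 8.30, 8.45 and 8.09 in HDAC6, so the groups overlapped, while its guide fell by 1.37. Its difference changed by 1.49 (SE 0.33, adjusted p = 0.0182, limma over pairs), and that of miR-93, from the same host transcript MCM7, by 1.25 (SE 0.36, adjusted p = 0.0372). The other pairs of this kind were miR-101* (1.46), miR-30c-1* (1.40), miR-29b-2* (1.38), miR-125b-1* (1.34) and miR-200b* (1.28), with adjusted p from 0.0351 to 0.0405 (limma over pairs). The star changes of these 5 lay between -0.54 and 0.36 and none passed. The stars of miR-101, miR-200b, miR-29b-2 and miR-93 hold values equal to the mean of the other arrays. With such values treated as missing, these pairs and that of miR-30c-1 did not pass (adjusted p 0.073 to 0.0734, limma). With the base-composition adjustment none of the 7 pairs of this paragraph passed, with changes of 0.56 to 1.11 (adjusted p 0.0721 to 0.35, limma), and each lost its call in at least 3 of the 6 fits that left out an array.

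In 2 further pairs the star passed as higher and the guide did not pass. The difference of miR-149 went from 2.67, 3.61 and 3.77 in Mock to 4.44, 4.71 and 5.08 in HDAC6, a change of 1.39 (SE 0.39, adjusted p = 0.0372, limma over pairs), with the guide at -0.06. The difference of miR-187 went from -1.64, -1.94 and -0.64 to -0.50, 0.41 and -0.01, a change of 1.37 (SE 0.43, adjusted p = 0.0474, limma over pairs), with the guide at -0.25. The groups of both pairs were apart, by little for miR-187. The miR-149 call was lost in all 6 fits that left out an array (adjusted p 0.057 to 0.0854, limma) and the miR-187 call in 5 of 6 (0.0636 to 0.168). With mean-equal values as missing neither pair passed (adjusted p 0.0544 for miR-149 and 0.0734 for miR-187, limma). With the base-composition adjustment the changes were 0.57 for miR-149 (adjusted p 0.376) and 0.89 for miR-187 (0.214, limma).

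The pair in which the star lost on its guide was the mirtron miR-877. The guide read 8.11, 8.30 and 8.79 in Mock and 9.52, 10.08 and 9.58 in HDAC6 and rose by 1.33 (adjusted p = 0.0054, limma). The star read 7.58, 5.71 and 6.93 in Mock and 6.07, 6.40 and 6.56 in HDAC6, with overlapping groups and a Mock value on array 3 that equals the mean of the other 2. The difference changed by -1.72 (SE 0.51, adjusted p = 0.0405, limma over pairs), and it lost the call with mean-equal values as missing (adjusted p 0.0734), with the base-composition adjustment (0.104) and in 5 of 6 fits that left out an array (0.07 to 0.121).

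Of the 17 paired stars that passed as lower, 16 had a guide that also passed as lower. In 3 pairs both strands passed as higher, and no difference passed the pair test in either set. The miR-24-1* and miR-24-2* probes changed by -1.01 and -0.99 beside -0.97 for the miR-24 guide, and the differences changed by -0.04 and -0.02 (SE 0.31 for each). The miR-34b star and guide both changed by -0.79, with an SE of 0.42 on the difference. The star of miR-192 changed by -1.22 beside -1.90 for its guide, and that of miR-148b by -1.59 beside -1.14. The strands that passed together as higher were those of miR-1909 (1.25 and 1.01), miR-1226 (1.32 and 0.68) and miR-1228 (0.78 and 0.80). With SEs of this size a missed threshold does not show that the strands moved equally.

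Several pairs lay just outside the threshold of the pair test: miR-30b* at 1.93 (adjusted p 0.0509), miR-21* at 1.11 (0.0534) and let-7d* at 1.76 (0.0542, limma over pairs). In miR-30b and miR-21 the guide fell, by 1.87 and 1.22, while the star stood at 0.05 and -0.10. Over the 57 pairs that did not pass, the changes ran from -0.89 to 1.93 and 39 were positive.

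By family, stars and guides are given side by side as counts, and the differences between their shares were not tested. For comparison, 14.5% of all stars passed as higher and 26.5% as lower, and 20.7% of all guides passed as higher and 29.5% as lower. In the miR-17/miR-92 cluster and its paralogs, which promote proliferation in many tumours, 2 of 12 stars passed as higher and 3 as lower with a median of -0.20, beside 11 of 13 guides lower with a median of -1.19. The star shares of this list are near those of all stars. The 2 rises were those of miR-363* and miR-92b*, and the 3 falls those of miR-17* (-0.89), miR-18a* (-0.94) and miR-20a* (-1.14). The first 2 of these calls were lost in 4 of 6 fits that left out an array (adjusted p 0.0616 to 0.116, limma). In the miR-30 family 2 of 5 stars passed as lower, miR-30e* (-1.03) and miR-30d* (-0.86), with a median of -0.37, beside all 5 guides with a median of -1.58. The miR-30d* call was lost under 5 of 15 alternatives (adjusted p 0.0513 to 0.0843, limma). In the miR-29 family, which represses collagens, 1 of 3 stars passed as lower, miR-29c* at -0.91 with 1 HDAC6 value equal to the mean of the others, beside all 3 guides with a median of -1.66. The miR-29c* call was lost with centring on control probes (adjusted p 0.0814, limma). The only star of the epithelial miR-200 family, miR-200b*, stood at -0.02 beside 4 of 4 guides lower with a median of -1.47.

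The miR-15/16 family, which acts on the cell cycle and on BCL2, split among its stars: miR-195* rose and miR-15b* and miR-16-2* fell, beside 2 of 6 guides lower. With the base-composition adjustment neither fall passed, miR-15b* at -0.75 (adjusted p 0.0723) and miR-16-2* at -0.05 (0.888, limma). In the miR-23/24/27 group 2 of 5 stars passed as lower, both of miR-24, with a median of -0.99 beside 5 of 5 guides with a median of -1.09. In the group of miR-192, miR-194 and miR-215, miR-194* rose and miR-192* fell while all 3 guides fell, with a median of -1.64. Of the miRNAs often raised in liver cancer, 1 of 3 stars passed as lower, beside 8 of 9 guides. Of the 2 stars from the imprinted 14q32 cluster, 1 passed as higher, miR-431*, beside 3 of 8 guides higher and 1 lower. Of the 2 stars of the miR-34 and miR-449 family 1 passed as lower, miR-34b*, beside 3 of 4 guides. The single let-7 star, let-7d*, passed as higher, beside 1 of 8 guides lower.

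**Figure D4:**
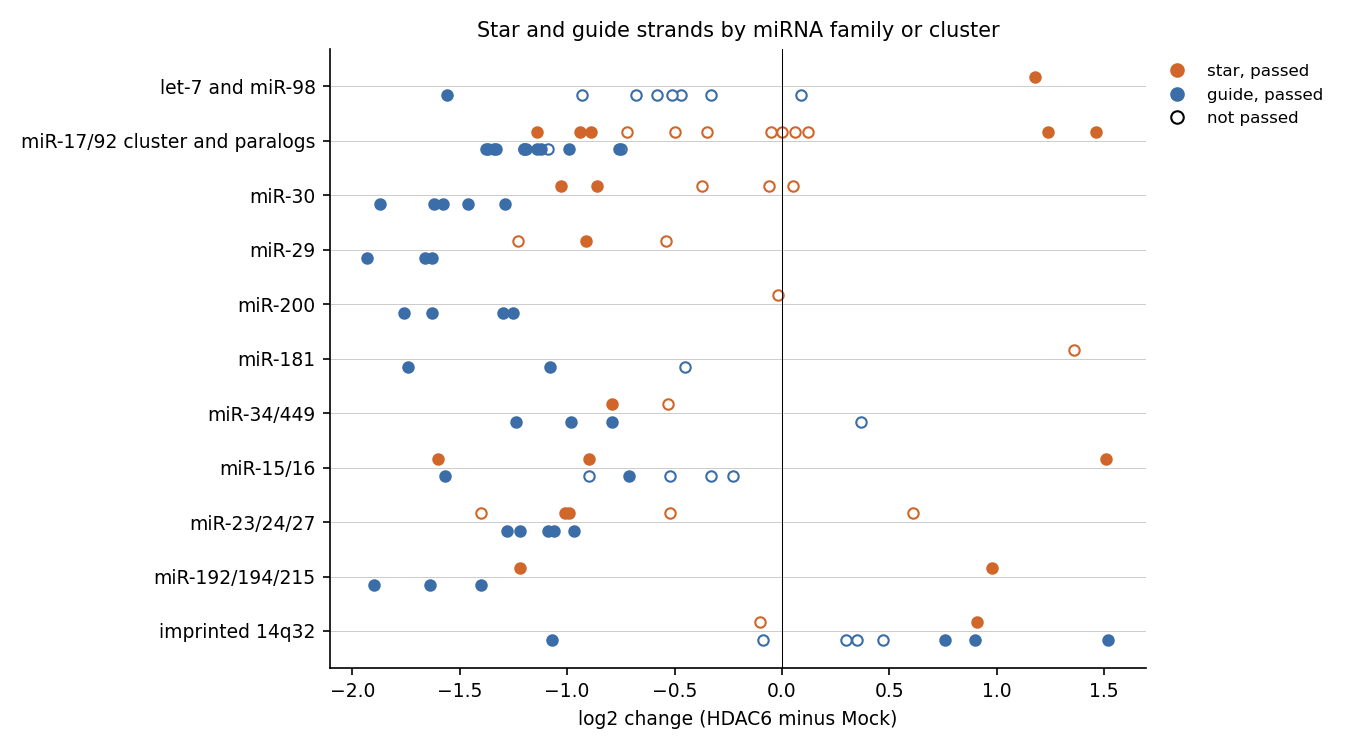
Log2 change of star probes (orange) and guide probes (blue) in each list of a miRNA family or cluster, 1 point per probe, filled where the probe passed limma's test. The miRNAs often raised in liver cancer and the cell type markers are not drawn as lists. In the miR-17/miR-92, miR-30, miR-29 and miR-200 lists the guides lie mostly below the stars of the same list.

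Markers of cell types were read in the same way. The hepatocyte markers have 3 stars on the array, 1 higher (miR-194*) and 1 lower (miR-192*), and 3 of their 5 guides passed as lower. The only star on the blood-cell list was miR-150*, whose narrow call at 0.58 is described above, with its guide at -0.03. The fibroblast and smooth muscle, endothelial, striated muscle and neural lists held no star. Of the 3 fibroblast and smooth muscle guides miR-214 passed as higher (1.24, adjusted p 0.00384, limma), and both neural guides, miR-128a (-1.53) and miR-153 (-0.59), passed as lower. The part of other cells in these values was not tested.

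Stars whose arms lie within 10 kb of each other can share a primary transcript, and 10 such groups were found from the GRCh38.p14 positions. In the miR-17/miR-92 cluster at chr13:91350655-91351346, 3 of 5 stars passed as lower, beside 26.5% of all stars, and the changes ran from -1.14 to -0.05. With the base-composition adjustment miR-17* (adjusted p 0.066) and miR-20a* (0.407, limma) did not pass. In the group of miR-25, miR-93 and miR-106b at chr7:100093610-100094023, none of 3 stars passed and the changes ran from 0.00 to 0.12. At chr3:160404645-160404818 both stars, miR-15b* and miR-16-2*, fell, and neither passed with the base-composition adjustment. At chr11:64891159-64891389 the stars of neighbouring hairpins passed in opposite directions, miR-192* at -1.22 and miR-194* at 0.98. At chrX:134169425-134170063 miR-363* rose, whereas miR-18b* and miR-92a-2* did not pass at -0.72 and -0.35. In the fit as reported, neighbouring stars thus passed in the same direction at some loci and in opposite directions at 1. At that 1 locus the miR-194* call was lost with the base-composition adjustment (adjusted p 0.129, limma).

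Shared seeds did not go with shared changes in every case. As printed above, miR-195* and miR-16-2* carry the seed CAAUAUU and are identical over their first 8 bases, and miR-195* rose by 1.51 while miR-16-2* changed by -0.90 (SE 0.29, adjusted p = 0.0344, limma). The miR-16-2* probe read 7.24, 6.71 and 7.72 in Mock and 6.22, 6.61 and 6.14 in HDAC6, with groups narrowly apart, and lost its call under 9 of 17 alternatives. With the base-composition adjustment its change was -0.05 (adjusted p 0.888, limma). The printed sequences of miR-195* and miR-16-2* also share a later stretch, offset between the arms. Whether each binds the other's probe was not tested. The seed GCCUACU belongs to miR-24-1* and miR-24-2*, which both fell. The other 4 shared seeds, of miR-23a* and miR-23b*, miR-30c-1* and miR-30c-2*, miR-99a* and miR-99b*, and miR-373* and miR-616*, were held by stars that did not pass.

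The changes of the stars went with the base composition of the mature arm. Over the 73 stars with a RefSeq sequence, the log2 change and the GC content had r = 0.59 and rho = 0.61, a description of probes measured on the same 6 arrays. The 33 stars with a GC content of at most 50% had 2 higher and 16 lower probes with a median of -0.89. The 22 stars from 52.0% to 59.1% had 3 higher and 3 lower with a median of -0.08, and the 18 stars from 60.0% to 77.3% had 6 higher and 1 lower with a median of 0.43. Stars that passed as higher had a median GC content of 68.2% (n = 11), and those that passed as lower 46.6% (n = 20).

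The same held for the guides paired with these stars, with r = 0.74 over the 58 that had a sequence. The other guides of the array were not examined for base composition. On the stars, the slope of the log2 signal per 10 points of GC was 0.26 to 0.37 on the Mock arrays and 0.71 to 0.85 on the HDAC6 arrays. On the guides it was -0.34 to -0.26 in Mock and 0.19 to 0.28 in HDAC6, so the slope was more positive on every HDAC6 array than on every Mock array for both kinds of probe. The star arms had a median GC content of 54.5% and the guides 47.8%, and over 63 pairs with both sequences the change of the difference went with the difference in GC at r = 0.49 and rho = 0.54. A difference between arrays in how signal follows GC content cannot be told apart from the groups, since all arrays of a group share it. With each array's slope on GC removed, 5 stars passed as higher and 13 as lower, and 5 pairs as higher and 0 as lower. That fit held only the 131 strands with a sequence, that is 73 of the 83 stars and 63 of the 73 pairs. Its p-values were adjusted over those strands or pairs alone, so its counts are not like for like with those over all probes. By arm, the 40 stars from the 3p arm had 5 higher and 13 lower probes with a median of -0.38, and the 33 from the 5p arm 6 and 7 with a median of -0.11.

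**Figure D5:**
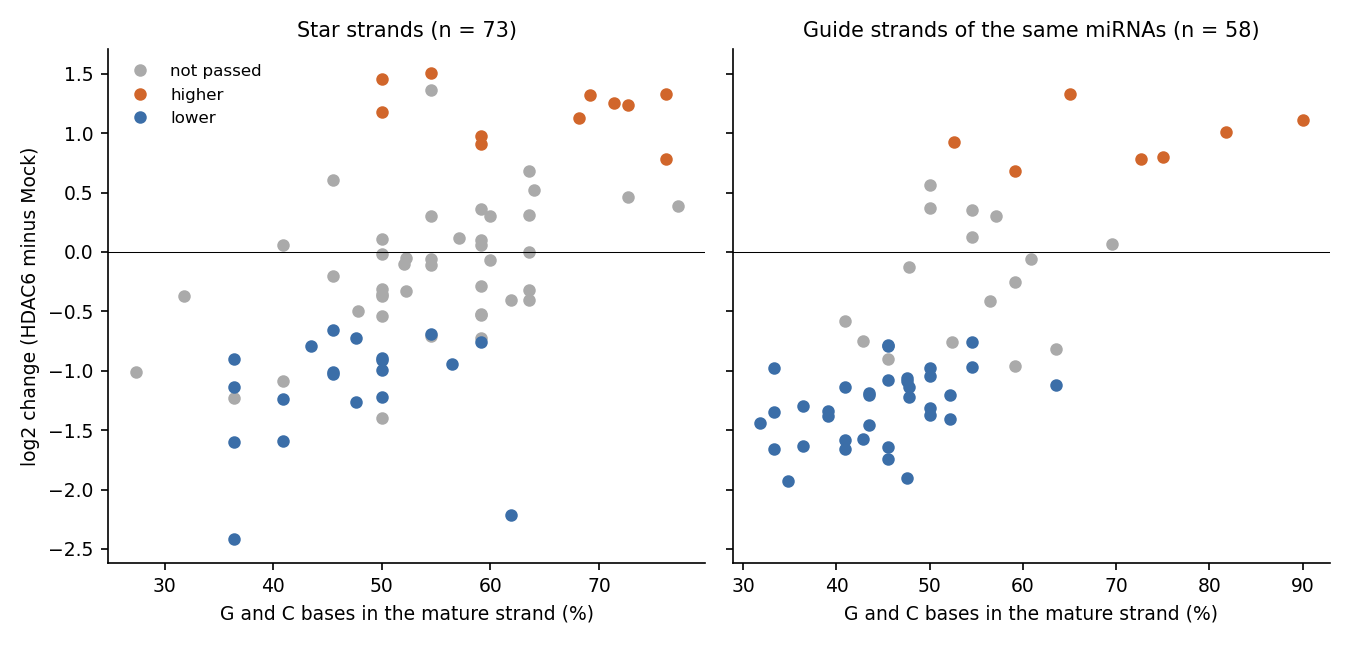
Log2 change with HDAC6 against the GC content (percent) of the mature arm, for 73 star probes on the left and 58 guide probes of the same miRNAs on the right, 1 point per probe. Changes rise with GC content on both sides, at r = 0.59 for stars and 0.74 for guides.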

How the data were processed

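The deposited values are normalized log2 signals of 582 probe rows on 6 one-colour GenoExplorer microRNA arrays, 1 row blank. Per the labels, 10 ug of pooled RNA was labelled with biotin, spots judged poor by eye were dropped, 3 spot signals were averaged, and the authors applied quantile normalization and a class filter in GenePlex 3.0. For the background correction and the filter's rule nothing is given in the sources used here. That the scale is log2 was read from the values, which run from 3.52 to 15.78.

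The contrast of HDAC6 with Mock was fitted with limma 3.58.1 (lmFit and eBayes, two-sided) in R 4.3.3, with Benjamini-Hochberg adjustment over 581 probes and a threshold of 0.05. Star minus guide was tested in the same way over 73 pairs. The code was tested on simulated data. Star names were matched to current arm names by hand. GC adjustment took out each array's linear slope on GC over 131 strands with a sequence.

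Named miRNAs were the 8 largest rises and 12 largest falls with groups apart, every pair past the threshold, stars opposed to their guides, up to 3 members per list, and miR-335*, miR-2116* and miR-34b*. Others were chosen after their values were seen. Members, lists, tests and alternatives were chosen with earlier results of these data known. The alternatives covered scaling, filters, weights, the replicate block and single arrays left out. Mean-equal values as missing, strands with sequence alone and GC adjustment were added after the values were seen.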

Additional observations from a re-analysis of the deposited data

How the results depend on the processing

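The reported counts were 12 stars higher and 22 lower, and 15 pairs higher and 1 lower. Stars higher and lower were 11 and 22 with median centring, 14 and 15 with repeated quantile normalization, 10 and 7 with centring on 7 small RNA control probes, 9 and 6 with the brighter probes alone, 10 and 16 with an offset at the 25th percentile, 12 and 25 with an intensity trend and robust priors, 14 and 29 with array weights, 11 and 19 with mean-equal values as missing, and 5 and 13 with GC adjustment. Pairs higher and lower were 20 and 1 with repeated quantile normalization, 4 and 0 with the brighter probes alone, 27 and 2 with the offset, 17 and 1 with the trend, 22 and 1 with array weights, 11 and 1 with guides of the same name alone, 8 and 0 with mean-equal values as missing, and 5 and 0 with GC adjustment. Centring cannot move pair differences by construction. The GC-adjusted fit held only the 131 strands with a sequence, with 73 stars and 63 pairs, so its counts are not like for like with the reported ones. The change of miR-1228* reversed to -0.50 with GC adjustment (adjusted p 0.0938, limma). The median change of all probes was -0.09 as reported and 0.08 with repeated quantile normalization, and that of the stars -0.31 and -0.15.

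Leaving out 1 array gave 9 to 12 stars higher, 10 to 24 lower, 4 to 13 pairs higher and 0 to 1 lower. Stars lower numbered 14 without Mock array 1, 12 without HDAC6 array 1 and 10 without HDAC6 array 3, and pairs higher 8, 5 and 4 without Mock array 2, Mock array 3 and HDAC6 array 1. Replicate numbers did not pair the arrays: the deviations of arrays with the same number correlated at 0.16, -0.086 and 0.192. With the replicate block 11 stars were higher and 19 lower, and 9 pairs higher and 0 lower. The block ended the calls of the pairs miR-93*, miR-101*, miR-125b-1*, miR-185*, miR-187*, miR-200b*, miR-29b-2* and miR-877* (adjusted p 0.05 to 0.0908, limma). The cause of these differences was not tested, beyond fewer probes or arrays where they were left out. Only 3 arrays per group, and no measure of signal over background, limit the precision.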
